A study of Mus musculus with 53 samples.

Results

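Potassium channels set the resting potential of a cell and end its action potentials, and each tissue carries its own set of channel subunits. The genes described here are the 93 protein-coding mouse genes whose symbol begins with Kcn followed by letters and a number, and which stand in both bulk tables and in the single-cell tables. They were chosen by symbol alone, out of 21900 protein-coding genes, and 5 non-coding genes with a matching symbol were left out. The 93 genes fall into 15 families, of which inward rectifiers (15 genes), 2-pore leak channels (14), silent voltage-gated subunits (10), and the Kv1 and EAG, ERG and ELK families (8 each) hold the most.

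The samples are cerebella of individual pups, 1 per library, in which Atoh1Cre removed either Insm1 or both Tead1 and Tead2. Insm1 encodes a zinc-finger repressor of neuroendocrine and neuronal progenitors, and Tead1 and Tead2 encode DNA-binding partners of the Hippo pathway. At postnatal day 2 (P2), bulk RNA-seq compared 4 Atoh1Cre; Insm1fl/fl mutants with 4 Insm1fl/fl controls (batch 2), and 4 Atoh1Cre;Tead1fl/fl;Tead2fl/fl mutants with 3 Tead1fl/fl;Tead2fl/fl controls (batch 3). At postnatal day 7 (P7), single-cell RNA-seq (batch 1) held 3 mutants and 2 controls for each allele. Library number 1 of each P7 group was dissected with all lobules and the others without lobules IX and X. All controls carry floxed alleles and no Cre, so an effect of Cre itself cannot be told apart from that of the deletion. Atoh1Cre acts in the rhombic lip lineage, which includes granule cells, and the other cells of each cerebellum keep both genes. Chromatin data of the series were not analysed here.

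Granule cells arise from dividing progenitors in the outer layer of the postnatal cerebellum and then migrate inward as neurons. Maturing neurons gain channels that fix their excitability: leak channels of the Kcnk family, G-protein-gated inward rectifiers (Kcnj3, Kcnj6), subunits of the M-current such as Kcnq3, and fast delayed and transient rectifiers (Kcnc and Kcnd genes). Skeletal muscle fibres use another set: the strong inward rectifiers Kcnj2 and Kcnj12, the ATP-sensitive pore Kcnj11, and Kcnh1, whose current hyperpolarises human myoblasts before they fuse. The genes were listed by this division, with 21 neuronal maturation channels and 8 skeletal muscle channels, besides 10 channels of heart and smooth muscle and 6 of glia and epithelia.

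Promoters are printed for 3 genes that were higher in the P7 granule lineage of both mutants: Kcnk12, with the largest change, and the muscle inward rectifiers Kcnj2 and Kcnj12. Each window is the 250 bases before the annotated start, 5′ to 3′ on the gene's strand, from RefSeq on GRCm38.p6. Capitals mark CATTCC, the core element bound by TEAD proteins, and CAGNTG, the E-box pattern bound by muscle basic helix-loop-helix factors, each on either strand.
Kcnk12 (chr17:87797995-87798244, minus strand): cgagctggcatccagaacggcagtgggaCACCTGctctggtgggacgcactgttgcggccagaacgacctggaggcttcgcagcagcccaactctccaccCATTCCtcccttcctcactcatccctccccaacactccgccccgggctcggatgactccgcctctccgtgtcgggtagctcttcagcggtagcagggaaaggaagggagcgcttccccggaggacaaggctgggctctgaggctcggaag
Kcnj2 (chr11:111065914-111066163, plus strand): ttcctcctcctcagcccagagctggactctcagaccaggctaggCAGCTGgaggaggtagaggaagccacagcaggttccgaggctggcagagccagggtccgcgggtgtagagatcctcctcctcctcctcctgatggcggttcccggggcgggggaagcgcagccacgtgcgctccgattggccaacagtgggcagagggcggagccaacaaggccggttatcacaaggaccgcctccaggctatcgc
Kcnj12 (chr11:61065554-61065803, plus strand): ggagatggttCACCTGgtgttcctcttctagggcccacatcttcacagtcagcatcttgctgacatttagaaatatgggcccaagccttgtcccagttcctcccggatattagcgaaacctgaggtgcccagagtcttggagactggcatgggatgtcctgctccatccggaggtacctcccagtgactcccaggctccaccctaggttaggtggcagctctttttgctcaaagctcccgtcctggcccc

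Each of the 3 windows holds 1 CAGNTG match, and the Kcnk12 window also holds 1 CATTCC match. Of the 93 genes, 68 matched the promoter table, with 93 windows. CATTCC was found in 15.1% of those windows and in 12.6% of all 32851 promoter windows. CAGNTG was found in 51.6% and 44.8%, so both patterns are common, and a match describes the letters only.

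Bulk libraries held 28066726 to 64518819 expected counts. Levels are given as CPM, counts scaled to a common library size. TMM factors were applied to the P2 values and to gene values per library in the fitted P7 classes. P7 marker sums, medians and ranges by cell class, and values in muscle-like cells were scaled without these factors. A gene is called changed at a Benjamini-Hochberg adjusted p under 0.05 by edgeR's quasi-likelihood test over all genes. Insm1 lay at 30.8 to 71.5 CPM in P2 controls and at 8.39 to 16.1 CPM in Insm1 mutants. Tead1 counts at P2 overlapped between groups. Tead2 was 21.5 to 25.7 CPM in controls and 17.6 to 20.1 CPM in mutants 1 to 3, but 26.2 CPM in the library labelled mutant 4. An earlier analysis of these data had already found that library apart from the other mutants. Tead1/2 results at P2 are therefore given with and without it. At P7, 46088 cells were kept and no barcode was shared between libraries. The granule lineage held 28826 of them, 1345 to 4395 cells and 9238877 to 26981790 transcripts (UMIs) per library. Insm1 fell there from 63.3 to 69.6 CPM in controls to 6.60 to 21.7 CPM in Insm1 mutants, and Tead2 from 32.1 to 33.9 CPM to 10.5 to 12 CPM in Tead1/2 mutants. Tead1 was higher in Tead1/2 mutants (1258 to 1354 CPM) than in their controls (587 to 599 CPM). Reads outside a deleted exon still count for the gene, so neither Tead1 value checks the label. Doublet removal was severe: 28.1% to 51.3% of the barcodes past the filters were marked in a library.

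At P2, 1 potassium channel gene changed in the Insm1 mutants, Kcnh3, an ELK-type voltage-gated channel of forebrain neurons. Kcnh3 (ENSMUSG00000037579.7) was 3.23, 2.77, 2.33 and 2.50 CPM in the controls and 6.40, 5.75, 4.13 and 5.39 CPM in the mutants. All 4 mutants lay above all 4 controls. The log2 change was 1.01 ± 0.16 (SE, edgeR adjusted p = 0.0201). The call was lost without control 2, 3 or 4, or without mutant 2 or 4. Of the 93 genes, 78 passed the filter on low counts, and no gene was called lower. Of all 19582 genes tested, 0.48% were called higher and 0.209% lower. At an unadjusted p under 0.05 there were 16 of the 78 genes, and DESeq2 called 2 higher, Kcnh3 and the small-conductance calcium-activated channel Kcnn1, and 0 lower (0.452% and 0.328% of all genes). The median log2 change was -0.01, against 0.01 for all genes.

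In the Tead1/2 mutants Kcnh3 was 9.33, 8.10 and 8.36 CPM in mutants 1 to 3, against 2.00, 1.97 and 2.02 CPM in the controls. The library labelled mutant 4 had 1.77 CPM, below the controls, while the other 3 lay above them. With mutant 4 the log2 change was 1.78 ± 0.44 (edgeR adjusted p = 0.10) and without it 2.08 ± 0.12 (adjusted p = 2.36e-05). The second fit leaves out a library that is low for Kcnh3 itself, so its adjusted p is no independent support. By sex as read from the counts, mutants 1 to 3 were male and mutant 4 female. Controls 1 and 3 were male and control 2 female, so the fit without mutant 4 held male mutants only. With all 4 mutants edgeR called 0 of the 80 genes tested, as 0.0% of all genes, with 17 at an unadjusted p under 0.05, and DESeq2 called 3 higher and 4 lower (1.71% and 0.743% of all genes). Without mutant 4, 5 genes changed: 3 rose (1.98% of all genes were called higher) and 2 fell (1.22% lower).

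The other genes called without mutant 4 included leak channels and an ancillary subunit. Kcnk9, the acid-sensitive leak channel TASK-3 of granule neurons, was 89.6, 92.7 and 85.9 CPM in controls, 51.6, 56.3 and 60.6 CPM in mutants 1 to 3, and 79.7 CPM in mutant 4. All mutants, mutant 4 included, lay below the controls. Without mutant 4 the log2 change of Kcnk9 was -0.70 ± 0.06 (edgeR adjusted p = 0.000414). Kcnk12, the leak channel subunit THIK-2, was 1.40, 1.19 and 2.22 CPM in controls, 3.43, 3.58 and 3.16 CPM in mutants 1 to 3, and 2.13 CPM in mutant 4. Its log2 change without mutant 4 was 1.08 ± 0.22 (edgeR adjusted p = 0.037), and that of Kcne1l, a MinK-related ancillary subunit, was 0.45 ± 0.08 (adjusted p = 0.0176). With mutant 4 the adjusted p of these 3 genes lay between 0.09 and 0.13.

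**Figure D1:**
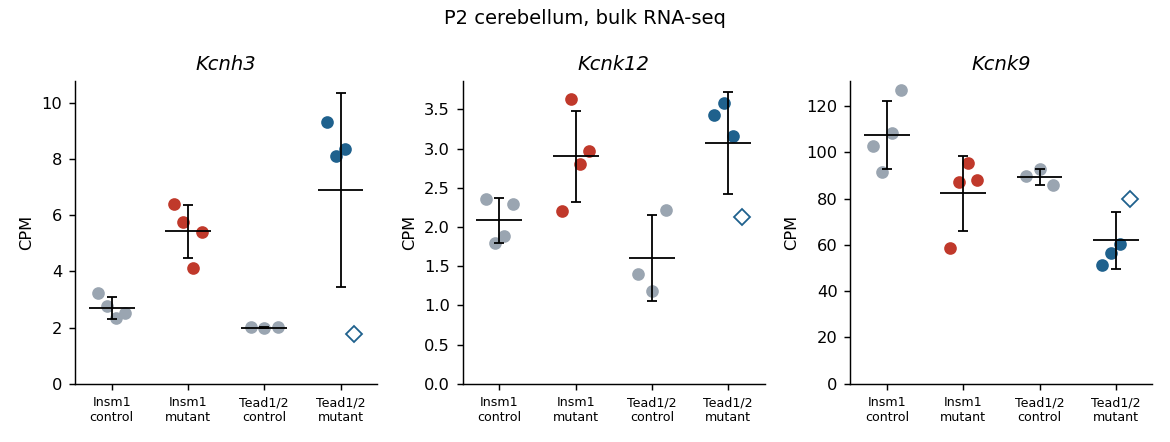
Levels in CPM (y axis) of Kcnh3, Kcnk12 and Kcnk9 in each P2 bulk library, by group (x axis); points are libraries, lines are group means and bars 1 SD, and the open diamond is the library labelled Tead1/2 mutant 4. Kcnh3 lies at 8.10 to 9.33 CPM in Tead1/2 mutants 1 to 3 and at 1.77 CPM in mutant 4.

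With all libraries, no gene of the neuronal or the skeletal muscle list was called by edgeR at P2. Of 21 neuronal maturation channels, all tested, edgeR called 0 in the Insm1 mutants (6 at an unadjusted p under 0.05, DESeq2 0), with a median log2 change of -0.06. In the Tead1/2 mutants edgeR called 0 as well (7 at an unadjusted p under 0.05), DESeq2 called 3 lower, and the median was -0.09; Kcnk9, called without mutant 4, is on this list. Of the 8 skeletal muscle channels, 6 were tested, and edgeR called 0 for either allele (2 and 0 at an unadjusted p under 0.05, DESeq2 0 and 0), with a median of -0.04 for both. Kcnj2 was 6.87, 7.98, 7.19 and 6.94 CPM in Insm1 controls and 10.2, 9.0, 8.43 and 9.18 CPM in mutants, without overlap, but its adjusted p was 0.19. Kcna7, a Kv1 subunit of muscle, and Kcne3, an ancillary subunit, did not pass the filter. Skeletal muscle markers moved in the same libraries: the sum of 20 markers was 43.3 to 69.0 CPM in Insm1 controls and 201 to 318 CPM in mutants, and 47.9 to 55.2 CPM in Tead1/2 controls. It was 208 to 282 CPM in Tead1/2 mutants 1 to 3 and 49.1 CPM in mutant 4. Between 17 and 20 of the 20 markers were detected per library, and Mymk was at 0 in mutant 4. Their part in the channel values was not tested. In bulk tissue, fewer cells of a type and less RNA per cell cannot be told apart. The difference between the alleles' effects called 0 of 81 genes by edgeR (4 at an unadjusted p under 0.05; 0.0% of all genes) and 0 by DESeq2 (0.0116% of all genes higher and 0.0209% lower).

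At P7, in the granule lineage, potassium channel genes changed in both directions with either deletion. In Insm1 mutants 20 of the 61 genes tested rose and 15 fell, where 11.5% of all 16310 genes rose and 6.94% fell. In Tead1/2 mutants 17 rose and 12 fell, where 12.1% of all genes rose and 7.9% fell. The groups of every called gene did not overlap. That separation rests on the same values as the calls and adds no support to them. Its share over all genes was not counted. The median log2 change of the 61 genes was 0.15 for both alleles, against 0.01 and 0.00 for all genes. Without Insm1 control 2 the number that rose in Insm1 mutants was 12, where 7.18% of all genes rose, and over all kept cells 27 rose and 24 fell in Tead1/2 mutants (25.2% and 20.5% of all genes).

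These values are sums over granule progenitor-like and granule neuron-like clusters, which were made without the channel genes but differ in their share of genotypes. Progenitor-like clusters 3, 4 and 7 held 6, 0 and 0 cells of Insm1 controls, and 1871, 17 and 733 cells of Insm1 mutants. Neuron-like cluster 28 held no control cell and 724 and 1471 cells of Insm1 and Tead1/2 mutants, while cluster 9 held 1425 and 1139 control cells against 113 and 138 mutant cells. Skeletal muscle markers moved here too. Their sum over 20 markers was 83.5 to 83.8 CPM in Insm1 controls, 195 to 241 CPM in Insm1 mutants, 85.7 to 103 CPM in Tead1/2 controls and 343 to 1037 CPM in Tead1/2 mutants. Chrna1 was at 0 in Insm1 control 2. Granule progenitor markers (12 genes) summed to 3561 to 3988 CPM in Insm1 controls and 3015 to 3130 CPM in mutants, and to 3992 to 4166 CPM in Tead1/2 controls and 3139 to 3786 CPM in mutants. The part of these markers in the channel values was not tested.

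Skeletal muscle channels were mostly higher in the granule lineage. Of the 8, 5 were tested, 4 rose and 1 fell in Insm1 mutants, and 4 rose in Tead1/2 mutants, with median log2 changes of 1.48 and 1.3. Kcna7, Kcnc4 and Kcne3 had too few counts to be tested. Kcnj2 (ENSMUSG00000041695.2), which holds the resting potential of muscle fibres, was 0.415 and 0.369 CPM in Insm1 controls and 1.49, 2.85 and 1.61 CPM in mutants. In the Tead1/2 libraries it was 0.425 and 0.364 CPM in controls and 1.40, 1.94 and 1.70 CPM in mutants. All mutants lay above all controls, at levels that stayed low. The log2 changes were 2.35 ± 0.38 and 2.08 ± 0.37 (edgeR adjusted p = 0.00075 and 0.0015).

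Kcnj12, its close relative, was 5.10 and 4.79 CPM in Insm1 controls and 12.2, 15.9 and 12.9 CPM in mutants, and 3.90 and 3.80 CPM in Tead1/2 controls and 9.59, 9.55 and 9.04 CPM in mutants. Its log2 changes were 1.48 ± 0.14 and 1.3 ± 0.14 (edgeR adjusted p = 1.1e-05 and 3.25e-05). Kcnh1, an EAG channel found both in neurons and in fusing myoblasts, was 14 and 15.1 CPM in Insm1 controls and 51.4, 81.5 and 73.5 CPM in mutants. In the Tead1/2 libraries Kcnh1 was 4.83 and 9.15 CPM in controls and 40.6, 63.0 and 41.2 CPM in mutants. Mutants and controls were separated for both genes and both alleles, and Kcnh1 changed by 2.26 ± 0.27 and 2.83 ± 0.29 on the log2 scale (edgeR adjusted p = 7.66e-05 and 1.84e-05). Kcnn3, a small-conductance calcium-activated channel, was called in Insm1 mutants (0.99 ± 0.25, edgeR adjusted p = 0.0127). In Tead1/2 mutants its estimate was 0.30 ± 0.24 (adjusted p = 0.46), and the difference between alleles was not called (0.70 ± 0.34, adjusted p = 0.59).

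**Figure D2:**
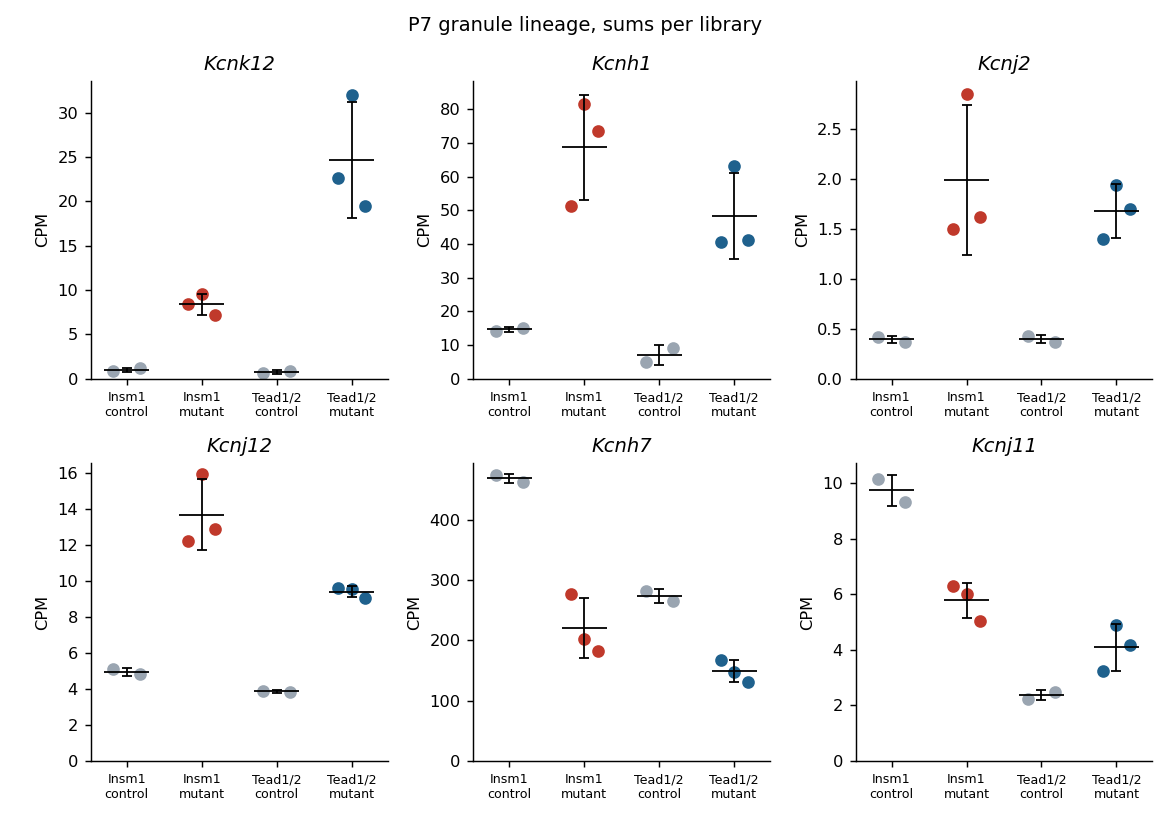
Levels in CPM (y axis) of 6 channel genes in the P7 granule lineage of each library, by group (x axis); points are libraries, lines group means and bars 1 SD. Kcnk12, Kcnh1, Kcnj2 and Kcnj12 lie higher and Kcnh7 lower in the mutants of both alleles, and Kcnj11 moves in opposite directions.

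The gene with the largest change was on neither list. Kcnk12 (ENSMUSG00000050138.8) was 0.83 and 1.17 CPM in Insm1 controls and 8.40, 9.51 and 7.20 CPM in Insm1 mutants. In Tead1/2 controls it was 0.618 and 0.884 CPM, and in Tead1/2 mutants 22.6, 32.0 and 19.4 CPM. The log2 changes were 3.14 ± 0.29 and 5.07 ± 0.29 (edgeR adjusted p = 9.84e-06 and 1.61e-07), with every mutant above every control. The difference between alleles, -1.94 ± 0.47, was not called by edgeR (adjusted p = 0.109) and was called by DESeq2. Kcnk13, the partner THIK-1, was 16.2 and 17.6 CPM in Insm1 controls and 37.3, 45.1 and 42.6 CPM in mutants. It was 14 and 14.3 CPM in Tead1/2 controls and 36.4, 49.9 and 39.6 CPM in mutants, with log2 changes of 1.32 ± 0.13 and 1.58 ± 0.14 (edgeR adjusted p = 2.03e-05 and 4.08e-06). Kcng2, a silent subunit that modifies Kv2 channels, lay at 0.43 to 0.773 CPM in controls and 3.22 to 9.37 CPM in mutants and rose by 2.59 and 3.55 on the log2 scale. Kcnh3, called at P2, was too sparse to be tested: Insm1 controls held 1 UMI and their mutants 14, and Tead1/2 controls held 3 UMIs and their mutants 12. In the 2-pore family as a whole, 4 of 8 tested genes rose and 1 fell for each allele.

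Neuronal maturation channels split. Of 21, 8 rose and 7 fell in Insm1 mutants (median log2 change -0.04), and 6 rose and 5 fell in Tead1/2 mutants (median -0.07). Kcnq3, a subunit of the M-current, lay at 298 to 329 CPM in the 4 controls and 158 to 198 CPM in the 6 mutants, and changed by -0.83 ± 0.08 and -0.82 ± 0.08. Kcnh7 (ENSMUSG00000059742.10), an ERG channel that slows repetitive firing, was 474 and 463 CPM in Insm1 controls and 277, 203 and 181 CPM in mutants, and 282 and 265 CPM in Tead1/2 controls and 167, 147 and 131 CPM in mutants. Kcnh7 changed by -1.07 ± 0.14 and -0.87 ± 0.14 on the log2 scale (edgeR adjusted p = 0.000159 and 0.000762), and its groups did not overlap for either allele. The G-protein-gated rectifiers Kcnj3 (-0.51 and -0.54) and Kcnj6 (-0.46 and -0.60) also fell in both. Kcnk9 fell in Insm1 mutants by 0.94 ± 0.20 (edgeR adjusted p = 0.00514), and its estimate in Tead1/2 mutants was -0.37 ± 0.20 (adjusted p = 0.23). In neuron-like cells alone Kcnk9 was called lower for each allele.

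Several families held neuronal channels that rose. Kcnk3, the leak channel TASK-1, lay at 0.116 to 0.615 CPM in controls and 1.5 to 3.18 CPM in mutants, with log2 changes of 2.67 ± 0.54 and 3.19 ± 0.51. Kcna2, an axonal Kv1 subunit, was 2.68 and 2.34 CPM in Insm1 controls and 10.3, 10.3 and 12.8 CPM in mutants, and 1.85 and 1.61 CPM in Tead1/2 controls and 6.32, 7.66 and 4.82 CPM in mutants. It rose by 2.14 ± 0.21 and 1.86 ± 0.22 on the log2 scale (edgeR adjusted p = 1.48e-05 and 6.18e-05). Kcnip4, a calcium-binding subunit of Kv4 channels, rose by 0.79 ± 0.16 and 1.54 ± 0.17, the BK pore Kcnma1 by 0.71 ± 0.17 and 0.78 ± 0.16, the leak channel TWIK-1 gene Kcnk1 by 0.56 and 0.83, and the Kv3.1 gene Kcnc1 by 0.36 and 0.39. In Insm1 mutants Kcnq5 (0.56 ± 0.10) and the sodium-activated channel Kcnt1 (0.92 ± 0.29) rose as well. In progenitor-like cells alone their estimates there were -0.0043 and -1.0887, neither called. In neuron-like cells alone Kcnq5 and Kcnt1 were called higher for each allele. In the summed lineage 6 genes of the list were called for neither allele: Kcna1, Kcna6, Kcnab2, Kcnd2, Kcnj9 and Kcnmb4. In progenitor-like cells alone Kcnd2 and Kcnmb4 were called lower for each allele, and Kcnab2 was called lower in Tead1/2 mutants. Kcnd2 was also called higher in neuron-like cells of Insm1 mutants. Outside the lists, Kcnh5 (-1.06 and -1.51), the Kv3.2 gene Kcnc2 (-0.61 and -1.49), Kcnb2 (-0.66 and -0.76) and the silent subunit Kcns2 (-1.85 and -0.69) fell in both mutants.

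The alleles, which have separate controls, shared calls. In both, 15 genes rose, 75.0% of the 20 that rose in Insm1 mutants and 88.2% of the 17 in Tead1/2 mutants. Another 9 fell in both, 60.0% of 15 and 75.0% of 12. Over all genes, the shared calls were 73.2% and 69.3% of those that rose and 64.2% and 56.4% of those that fell. Kcnj11 was the only gene called in opposite directions. Kcnj11 (ENSMUSG00000096146.2) was 10.2 and 9.34 CPM in Insm1 controls and 6.29, 6.0 and 5.05 CPM in mutants. In the Tead1/2 libraries it was 2.24 and 2.50 CPM in controls and 3.22, 4.88 and 4.16 CPM in mutants. The controls of both lines thus differed more from each other than from their mutants, although all P7 libraries carry 1 batch label. Its log2 changes were -0.73 ± 0.17 and 0.81 ± 0.19 (edgeR adjusted p = 0.0084 and 0.0099), and the difference of -1.54 ± 0.26 was the one called among 61 genes (edgeR adjusted p = 0.0153; 0.49% of all genes were called higher and 0.331% lower, and 14 of the 61 had an unadjusted p under 0.05). DESeq2 called 2 differences higher and 3 lower, Kcnj11 among them (0.462% and 0.298% of all genes). The edgeR call on Kcnj11 was lost without any 1 of the 4 controls (adjusted p = 0.0546 to 0.104) and with sex as a term (0.0529), with estimates between -1.45 and -1.62. At P2, Kcnj11 was 8.46 to 9.83 CPM in Insm1 controls and 5.68 to 8.14 CPM in mutants (-0.34, edgeR adjusted p = 0.42). It was 4.89 to 6.21 CPM in Tead1/2 controls and 5.38 to 6.57 CPM in mutants. The controls of the lines lay apart at that age too, but there each line is its own batch, and line and batch cannot be told apart.

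**Figure D3:**
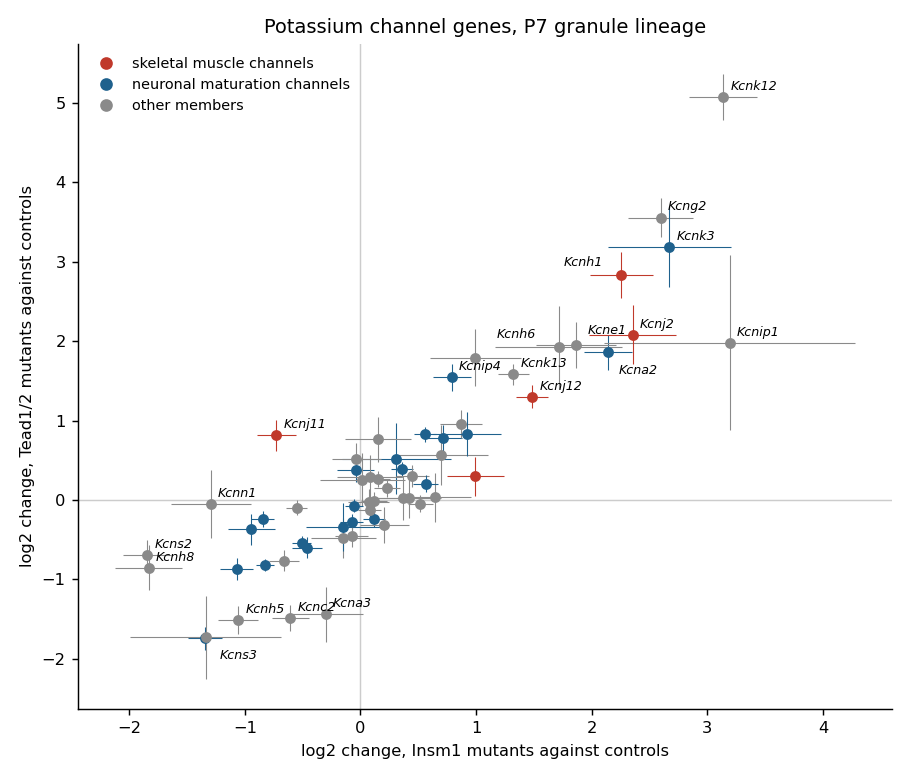
Log2 change of 61 channel genes in the P7 granule lineage, Insm1 mutants (x axis) against Tead1/2 mutants (y axis), each against its own controls; bars are 1 SE, red points are skeletal muscle and blue points neuronal maturation channels. Kcnk12 lies at 3.14 and 5.07, Kcnh5 at -1.06 and -1.51, and Kcnj11 alone among called genes at -0.73 and 0.81.

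The sulfonylurea receptors that pair with Kcnj11 and its relatives were on a list of 16 channel partners, of which 12 were tested. Abcc8 (SUR1) was 72.6 and 57.0 CPM in Insm1 controls and 62.4, 60.8 and 52.2 CPM in mutants, but 9.70 and 12.3 CPM in Tead1/2 controls and 31.5, 39.3 and 34.1 CPM in mutants. It rose in Tead1/2 mutants by 1.69 ± 0.15, and the difference between alleles was called (-1.82 ± 0.19, edgeR adjusted p = 0.00116). As with Kcnj11, the controls of both lines lay far apart. Abcc9 (SUR2), the form of muscle and vessels, rose in both, by 2.37 and 2.53. Dpp6, an ancillary subunit of Kv4 channels, rose from 389 and 380 CPM to 1106, 1056 and 1023 CPM in Insm1 mutants and from 366 and 383 CPM to 1008, 1090 and 897 CPM in Tead1/2 mutants. In all, 4 partners rose in each mutant and 1 fell in Insm1 mutants.

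Progenitor-like and neuron-like cells were also fitted apart. In progenitor-like cells 11 of 55 genes tested rose and 19 fell in Insm1 mutants (9.28% and 7.48% of all genes), and 14 rose and 17 fell in Tead1/2 mutants (10.7% and 8.1%). In neuron-like cells 19 of 52 rose and 11 fell in Insm1 mutants (12.9% and 6.92% of all genes), and 15 rose and 11 fell in Tead1/2 mutants (13.5% and 8.39%). In progenitor-like cells most called genes of the neuronal list fell: of 17 tested, 3 rose and 10 fell in Insm1 mutants (median -0.69) and 4 rose and 9 fell in Tead1/2 mutants (median -0.40). In neuron-like cells the list's calls were 7 higher and 6 lower of 21 (median 0.25), and 6 and 6 (median 0.15). Granule neuron markers (10 to 12 of 12 genes detected per library, with Gabra6 at 0 in 6 of 10) also summed lower in mutant progenitor-like cells, at 2084 to 2322 CPM against 2750 to 3001 CPM in Insm1 controls, and at 2317 to 2453 CPM against 2973 to 3481 CPM in Tead1/2 controls. In neuron-like cells 6 of the 12 granule neuron markers were called higher and 3 lower for each allele (median log2 changes 0.82 and 0.65), all 12 being detected in every library. Their sum was 5852 to 6455 CPM in Insm1 controls and 6527 to 7027 CPM in mutants, and 6327 to 6904 CPM in Tead1/2 controls and 5953 to 6697 CPM in mutants. Markers of other neurons went in different directions there. The sum of 5 unipolar brush cell markers (4 or 5 detected per library, Lmx1a at 0 in Insm1 control 2 and mutant 2) was 35.4 to 50.6 CPM in Insm1 controls, 49.4 to 73.5 CPM in mutants, 37.4 to 41.7 CPM in Tead1/2 controls and 58.5 to 85.9 CPM in mutants, and edgeR called 2 and 4 of the 5 higher. The sum of 8 Purkinje cell markers (5 to 8 detected, Skor2 at 0 in 8 of 10 libraries) was 553 to 560.3 CPM in Insm1 controls, 708 to 1359 CPM in mutants, 575 to 629 CPM in Tead1/2 controls and 724 to 1223 CPM in mutants, with Rora alone called higher for each allele. The sum of 6 excitatory nuclear neuron markers (5 or 6 detected, Irx3 or Lhx9 at 0 in 5 of 6 mutants) was 224 to 273 CPM in Insm1 controls, 179.5 to 225 CPM in mutants, 248 to 273 CPM in Tead1/2 controls and 156 to 216 CPM in mutants, with Slc17a6 called lower in Tead1/2 mutants. Of 10 GABAergic interneuron markers (9 or 10 detected, Ptf1a at 0 in 8 of 10 libraries, sums of 21.5 to 47.6 CPM over all libraries), Kit was called lower for both alleles and Sorcs3 higher in Tead1/2 mutants. The part of these markers in the channel values, and the difference between the classes, were not tested.

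Kcnip4 moved in opposite directions. In progenitor-like cells it was 88.6 and 74.5 CPM in Insm1 controls and 38.7, 34.0 and 24.8 CPM in mutants, and in neuron-like cells 46.2 and 46.3 CPM and 216, 192 and 210 CPM. It fell by 1.31 ± 0.18 in the former and rose by 2.19 ± 0.27 in the latter (edgeR adjusted p = 0.000157 and 5.28e-05). In Tead1/2 mutants the neuron-like rise was 3.87 ± 0.31, from 17.9 and 12.6 CPM to 131, 223 and 313 CPM, and the progenitor-like estimate was -0.40 ± 0.17 (adjusted p = 0.147). Kcnt2, a sodium-activated channel named after its values were seen, fell in progenitor-like cells (-1.09 and -0.85) and rose in neuron-like cells (1.16 and 0.99) of both mutants. Of the 46 genes tested in both classes, 5 fell in progenitor-like and rose in neuron-like cells of Insm1 mutants. Kcnt2 was the 1 such gene in Tead1/2 mutants. No gene did the reverse. The share of all genes with opposite calls in the classes was not counted, so these counts are not set apart from other genes.

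**Figure D4:**
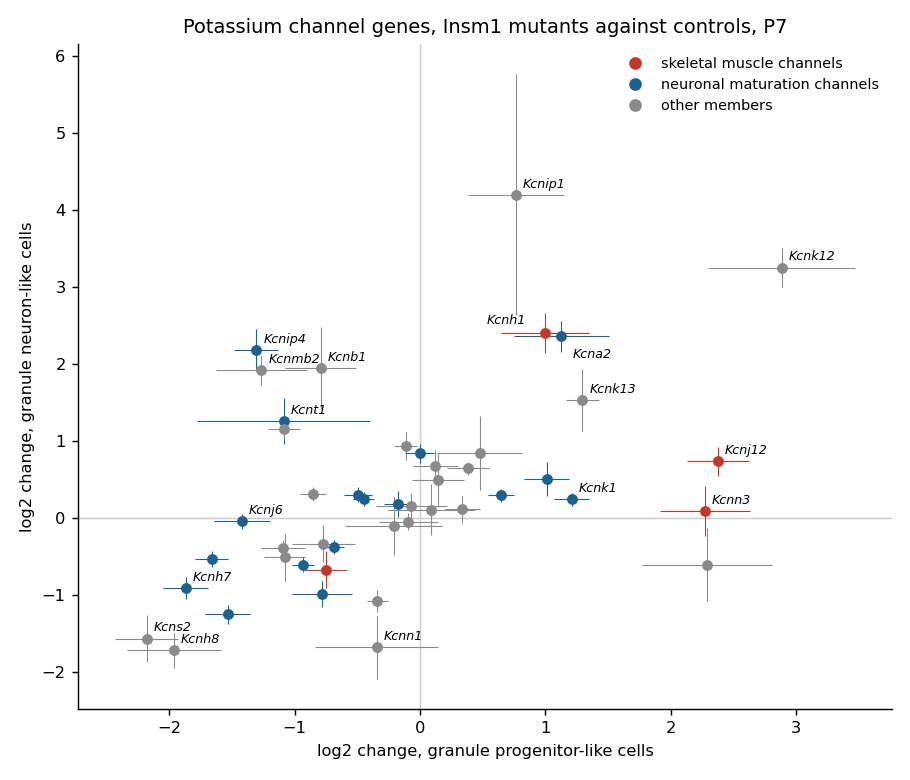
Log2 change in Insm1 mutants of the 46 channel genes tested in both classes, in granule progenitor-like cells (x axis) and granule neuron-like cells (y axis) at P7; bars are 1 SE, red points are skeletal muscle and blue points neuronal maturation channels. Kcnip4 lies at -1.31 and 2.19, and Kcnh7 falls in both classes.

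Kcnh7 fell in both classes for both alleles, by 1.87 and 1.58 on the log2 scale in progenitor-like cells and by 0.91 and 0.68 in neuron-like cells. Kcnk12 rose by 2.88 and 5.45 in progenitor-like and by 3.25 and 4.70 in neuron-like cells. The muscle rectifier Kcnj12 rose by 2.38 and 1.85 in progenitor-like cells, from 1.97 to 3.64 CPM in the 4 controls to 9.03 to 17.8 CPM in the 6 mutants, and by 0.74 and 0.71 in neuron-like cells. Kcnj2 and Kcng2 passed the filter in progenitor-like cells alone (2.19 and 2.28 for Kcnj2, 2.66 and 3.90 for Kcng2). Kcnk1 and Kcnma1 rose in progenitor-like cells of both mutants and were called in neuron-like cells of neither, while Kcnh1 rose most in neuron-like cells (2.40 and 3.24). Muscle marker sums were higher in mutants in both classes: 247 to 301 and 400 to 1442 CPM in progenitor-like cells, and 143 to 168 and 261 to 518 CPM in neuron-like cells, where controls lay between 73.2 and 108 CPM. Their part was not tested.

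GABAergic interneuron-like cells come from another germinal zone and were read in the same libraries. Of 40 channel genes tested, edgeR called 0 in Insm1 mutants (8 at an unadjusted p under 0.05, with 0.0433% of all genes called higher and 0.147% lower). DESeq2 also called 0 (0.0195% and 0.0662% of all genes). In Tead1/2 mutants 4 fell and 0 rose (0.528% of all genes higher, 0.64% lower, 13 genes at an unadjusted p under 0.05). They were Kcnip3, a calcium-binding Kv4 subunit (log2 -1.01 ± 0.19, edgeR adjusted p = 0.0069), the Kv4 pores Kcnd3 (-0.47 ± 0.10) and Kcnd2 (-0.59 ± 0.14), and Kcnh7 (-0.42 ± 0.09). With doublets kept the estimate for Kcnd2 was 0.0101. Kcnip3 was 39.9 and 46.9 CPM in controls and 25.7, 14.6 and 24.4 CPM in mutants, with no overlap. Without Tead1/2 control 2 none of the 4 was called, and without mutant 2 there was 1 call (0.131% and 0.282% of all genes were called lower). With sex as a term there was 1 lower call as well (0.389% of all genes). With doublets kept, 10 and 11 genes were called higher and lower in Insm1 mutants (12.3% and 9.91% of all genes) and 12 and 14 in Tead1/2 mutants (13.2% and 9.88%), and 2 of the 4 genes were among the latter. Kcnk12 had no UMI in interneuron-like cells of the 4 controls and 10 UMIs in the 6 mutants. Muscle marker sums moved in these cells as well, from 60.2 to 86.8 CPM in the controls to 114 to 169 CPM in Insm1 mutants and 260 to 731 CPM in Tead1/2 mutants, and their part was not tested.

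Skeletal muscle-like cells numbered 1009 in Insm1 mutants (8.17% to 9.45% of kept cells per library) and 2388 in Tead1/2 mutants (13.3% to 16.9%), against 5 and 0 in the controls, so no comparison between genotypes could be made inside them. They show which channels such cells carry, as medians over the 6 mutant libraries. Kcnk13 was at 490 CPM there, against 70.3 CPM in progenitor-like and 6.88 CPM in granule neuron-like cells. Kcnma1 was at 554 CPM, Kcnj12 at 56.9 CPM, Kcnn3 at 29.6 CPM, Kcnj2 at 26.3 CPM and Kcnj11 at 14.7 CPM. Each was lower in both granule classes, in which Kcnj12 was at 11.4 and 10.0 CPM and Kcnj2 at 2.79 and 0.34 CPM. Kcnn3 was highest in astroglia-like cells, at 619 CPM, and Kcnj2 in endothelial-like cells, at 76.3 CPM. Neuronal maturation channels differed in level in muscle-like cells. Little was found of Kcnk9 (0.675 CPM), and Kcna1, Kcna6, Kcnj9 and Kcnt1 were each under 1 CPM in all 6 mutant libraries. Over these libraries, Kcnd2 lay at 389 to 750 CPM, Kcnj3 at 412 to 538 CPM and Kcnq5 at 322 to 467 CPM. Kcnd2, Kcnj3 and Kcnq5 were higher still in granule neuron-like cells, with medians of 3453, 1229 and 3097 CPM. Kcna7, a muscle Kv1 subunit, was at 0.42 CPM and Kcne3 was at 0. Kcnc4, also on the skeletal muscle list, was at 0 to 0.207 CPM and was highest in astroglia-like cells, at 8.10 CPM.

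Kcnk12 and Kcnh1 were lower in muscle-like than in granule neuron-like cells. Kcnk12 was at 2.91 CPM in muscle-like cells, 10.7 CPM in progenitor-like and 19.8 CPM in granule neuron-like cells, with ranges over libraries of 0.387 to 5.68, 2.17 to 31.9 and 13.1 to 34.1 CPM. The muscle-like and neuron-like ranges did not overlap, and microglia-like cells reached 29.8 CPM. Kcnh1 was at 108 CPM in granule neuron-like and 26.1 CPM in muscle-like cells. Of 77 genes that reached 1 CPM in some class, 17 were highest in granule neuron-like cells, among them Kcnd2 (3453 CPM), Kcnh7 (351 CPM, and 645 CPM in controls) and Kcnk9 (73.1 CPM, and 120 CPM in controls). Another 5 were highest in progenitor-like cells, 7 in interneuron-like cells, 13 in astroglia-like cells and 7 in muscle-like cells, among them Kcnh2, Kcnj11, Kcnj12, Kcnk13, Kcnk4 and Kcnma1. The classes come from the same cells, so these levels are a description.

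**Figure D5:**
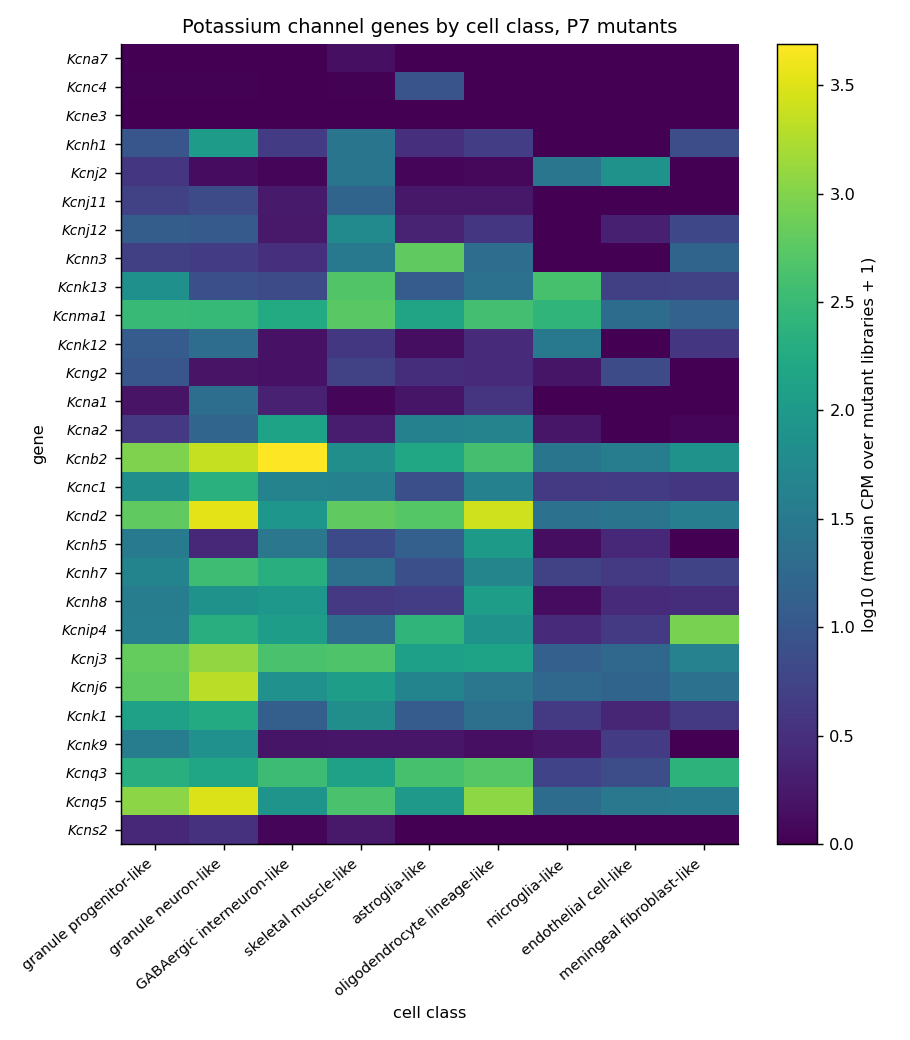
Median level over the 6 P7 mutant libraries, as log10 (CPM + 1) in colour, of 28 channel genes (y axis) in 9 cell classes (x axis). Kcnk13, Kcnma1, Kcnj12 and Kcnj11 stand out in skeletal muscle-like cells, Kcnk12 in granule neuron-like and microglia-like cells, and Kcnd2 reaches 3453 CPM in granule neuron-like cells.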

How the data were processed

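Bulk values are RSEM expected counts per gene that the authors deposited, from stranded total RNA libraries. The submitters' processing notes name RSEM 1.3.3, STAR 2.7.9a and Trim Galore 0.6.3. The P7 values are raw UMI counts per barcode that the authors deposited from a Parse Evercode WT v3 kit, on GRCm39 per the file headers. The bulk genome build is not given in the sources used here. Expected counts were rounded. The name of each deposited bulk table is that of the other line, so columns were assigned by the column names that the labels give. By this assignment Insm1 was 8.39 to 16.1 CPM in Insm1 mutants and 58.3 to 105 CPM in the Tead1/2 libraries.

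Barcodes with at least 1000 UMIs, 500 genes and at most 15% mitochondrial counts were kept. Scrublet's own threshold failed in 3 libraries, so 1 doublet score threshold, the median of the libraries' own thresholds, was used for all and marked 33750 of 79838 barcodes. The kept cells had median UMI counts of 4423 to 7782 per library and the marked ones 16645 to 26895.5. Cells were clustered in scanpy 1.11.5 (Python 3.11.15) without the channel genes (2000 variable genes, 30 components, 15 neighbours, Leiden resolution 1.0) and named from marker lists, with at least 3 markers. UMI counts were summed per library and class.

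Counts were fitted with edgeR 4.0.16 (R 4.3.3), TMM and filterByExpr, separately per allele at P2 and over 10 libraries with 4 groups at P7. The test gives no SE, so each edgeR SE is the absolute log2 change divided by the square root of the test's F statistic. Class values of fewer than 20 cells were not used. Shares of all genes by DESeq2 are over genes with any count, which include genes without an adjusted p. An adjusted p was given to 24082 of 39344 genes for P2 Insm1, 17123 of 40931 for P2 Tead1/2 and 28932 of 43165 for the P2 difference. It was given to 12730 of 25673 genes for Insm1 in P7 interneuron-like cells and 13764 of 32906 for the P7 granule lineage difference. DESeq2 1.42.0, no filter, a replicate block, each library left out, other cell subsets and, chosen after seeing the data, a sex term and a laxer doublet rule that drops the top 10% of scores were alternatives. Named are members of the 2 main lists and the called genes, up to 10 per direction, with at least 1 CPM; others were chosen after their values were seen. Some members are counted but their values are not reported here. The members and lists were chosen with earlier results of these data known. Same-numbered libraries correlated between -0.28 and 0.40 at P2 and between -0.22 and 0.086 at P7 and were not treated as pairs. No replicates were copies (chi-square per degree of freedom at least 9.16). Pipelines were tested on simulated data.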

Additional observations from a re-analysis of the deposited data

Results flagged for a closer look

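Outlying samples were looked for in 12 sets of 4 libraries (4 genes, each P2 group of 4), where chance gives about 1 in 20. In the P2 Tead1/2 mutants the library labelled mutant 4 was far below the other 3 for Kcnh3 (1.77 CPM against 8.10 to 9.33 CPM). Its gap to the nearest was 0.8375 of the group's range. That library had been found apart before this search, so the chance rate is no fair reference for it.

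The effects of the alleles on Kcnj11 in the P7 granule lineage differed, with a difference of -1.5389 on the log2 scale (edgeR adjusted p = 0.0153), lower in 3 of 3 Insm1 mutants and higher in 3 of 3 Tead1/2 mutants. The call was lost with sex as a term and without any 1 of the 4 controls.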

How the results depend on the processing

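Depth limits the low genes: Kcnj2 and Kcnk3 lie under 1 CPM in the P7 controls, and Kcna7, Kcnc4 and Kcne3 could not be tested there. With 2 P7 controls per allele, each call rests on few animals. Sex, read from the counts, was not balanced between groups. At P2 all Insm1 controls were female and Insm1 mutants 3 and 4 male. At P7 both Tead1/2 controls were female and Tead1/2 mutants 1 and 2 male. No cause of a change listed here was tested.

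At P2, the 1 gene called higher in Insm1 mutants became 2 by DESeq2 and 0 in a fit of all 15 libraries (0.37% of all genes). With a library left out it became 0 to 2 (0.232% to 0.475% of all genes). For Tead1/2 mutants, 0 called higher became 3 by DESeq2, 3 without the filter (1.93% of all genes) and 0 to 3 with a library left out. There, 0 called lower became 4, 5 (1.22%) and 0 to 2. With a library left out, 0.0% to 1.98% of all genes were called higher and 0.0% to 1.22% lower. The replicate block gave 1 higher and 2 lower there (0.706% and 0.459% of all genes), and Kcnh3 in Insm1 mutants kept its call with the block (1.01, adjusted p = 0.0344). In the P7 granule lineage, with a library left out, 12 to 18 rose and 11 to 14 fell in Insm1 mutants. Of all genes, 7.18% to 10.8% rose and 3.83% to 6.42% fell in those runs. In Tead1/2 mutants 14 to 19 rose and 8 to 14 fell, where 7.29% to 12.8% of all genes rose and 4.3% to 9.61% fell. Progenitor-like clusters alone gave 11 higher in Insm1 mutants, and all kept cells gave 27 higher and 24 lower in Tead1/2 mutants. For the difference between alleles, DESeq2 gave 2 higher and 3 lower, no filter 5 and 9 (1.01% and 0.754% of all genes), the replicate block 1 higher (0.607%) and sex as a term 0 lower (0.196%). A library left out gave 0 to 2 higher and 0 to 4 lower (0.165% to 0.785% and 0.106% to 0.546% of all genes). At P7 the block changed no other count of calls by over 1.5 times.

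In interneuron-like cells, doublets kept gave 10 higher and 11 lower in Insm1 mutants and 12 and 14 in Tead1/2 mutants, and removing only the highest 10% of doublet scores gave 12 and 12 (8.39% and 5.77% of all genes), and 13 and 14 (7.31% and 7.3%). No filter gave 1 lower in Insm1 (0.175% of all genes) and 2 higher in Tead1/2 mutants (0.67%), and sex as a term 1 lower in Tead1/2 mutants (0.389%). A library left out gave 0 to 1 lower in Insm1 mutants (0.0409% to 0.146% of all genes). In Tead1/2 mutants it gave 0 to 1 higher and 0 to 4 lower (0.148% to 0.535% and 0.131% to 0.754%). With doublets kept, 8 genes were highest in progenitor-like, 2 in microglia-like and 5 in oligodendrocyte lineage-like cells, in place of 5, 4 and 9.

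Log2 changes turned sign with doublets kept for Kcnd2 in interneuron-like cells (0.0101). Over all kept cells they did so for Kcnc1 (-0.0614 and -0.2783) and, in Tead1/2 mutants, Kcna2 (-0.1051), Kcnmb2 (-0.038) and Kcns3 (0.3891). In progenitor-like clusters they did so for Kcnip4 (-1.3083 and -0.3957), Kcnmb2 (-1.2676 and -0.512), Kcnq5 (-0.0043, Insm1), Kcnt1 (-1.0887, Insm1) and Kcnk2 (0.0118, Tead1/2). Apart from cell subsets, 21 of 35 called genes in the P7 granule lineage of Insm1 mutants and 21 of 29 in Tead1/2 mutants kept their call in every alternative run. At P2, 0 of 1 gene in Insm1 mutants and 0 of 5 in Tead1/2 mutants did so. The same held for 0 of 4 in interneuron-like cells of Tead1/2 mutants and 0 of 1 for the P7 difference between alleles.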
